A study of Homo sapiens with 16 samples.

Results

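The 38 genes described here belong to the cell's response to amino acid shortage and to the loading of amino acids onto tRNA. They were chosen by symbol from the count tables, as 38 of the 26485 symbols listed. By role they are 4 stress transcription factors, 6 stress effectors, 7 enzymes of asparagine, serine and one-carbon metabolism, 3 enzymes of gluconeogenesis and transsulfuration, 6 amino acid transporters and 12 cytosolic tRNA synthetases. All 38 passed the filter on low counts in each of the 4 comparisons. The files use older synthetase symbols, so that AARS stands for the gene now called AARS1.

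Messenger RNA was sequenced from SW480 and SW620, which are colon adenocarcinoma lines derived from a primary tumour and from a later lymph node metastasis of the same person. Both carry a truncated APC and have high Wnt signalling. The groups were SW480 with dnLEF1, SW480 with GFP, SW620 with dnLEF1 and SW620 with GFP, each with 4 libraries, all at passage 6 in DMEM and with no drug given. The dnLEF1 construct is a LEF1 protein without the part that binds beta-catenin, labelled as Wnt inhibited, and GFP is the mock control labelled as Wnt high. The promoter that drives either construct, and whether the cells were clones or pools, is not given in the sources used here. Nothing in the labels ties a library to a culture of its own, so p-values measure the spread among these samples, which may be technical.

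When amino acids run short, uncharged tRNA activates the kinase GCN2, which phosphorylates the initiation factor eIF2 and slows general translation while translation of ATF4 mRNA goes up. ATF4 then pairs with C/EBP proteins at C/EBP-ATF response elements and raises genes for amino acid synthesis, amino acid import and tRNA charging. PERK, the eIF2 kinase of the endoplasmic reticulum, feeds the same route. In colon cancer cells the transporters are also known as growth genes, since they bring in glutamine and leucine. ATF4 is set largely by translation, so its mRNA count is no measure of the pathway's activity.

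The core of the C/EBP-ATF response element, TGATGNAA, was sought on both strands in RefSeq promoter windows on GRCh38.p14, which run from 250 bases before to 50 bases after each annotated start. Of the 38 genes, 32 had a window, and 12 of these 32 (37.5%) held the motif, against 4.46% of 27305 genes with windows. The genes were listed as ATF4 targets, so this share only describes them. The TCF/LEF core CTTTGAT was in a window of 0 of the 32 genes and of 3.18% of all genes, which says only that these letters are not in these windows. The stretches below are those of ASNS, of 2 transporters and 5 synthetases that fell in SW480, and of AARS, which differed between the lines. Each is printed 5′ to 3′ on the strand of the gene, with the match in capitals, and a match on the other strand reads TTNCATCA.
ASNS (chr7:97872458-97872487, minus strand): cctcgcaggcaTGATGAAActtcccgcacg
SLC1A5 (chr19:46784893-46784922, minus strand): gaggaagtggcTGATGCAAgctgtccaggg
SLC3A2 (chr11:62881719-62881748, plus strand): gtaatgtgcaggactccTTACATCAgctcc
GARS (chr7:30594834-30594863, plus strand): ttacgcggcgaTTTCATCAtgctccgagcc
IARS (chr9:92293692-92293721, minus strand): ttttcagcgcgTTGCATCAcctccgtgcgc
NARS (chr18:57621804-57621833, minus strand): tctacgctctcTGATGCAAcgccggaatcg
MARS (chr12:57488053-57488082, plus strand): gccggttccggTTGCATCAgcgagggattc
AARS (chr16:70289675-70289704, minus strand): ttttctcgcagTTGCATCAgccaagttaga
TARS (chr5:33440956-33440985, plus strand): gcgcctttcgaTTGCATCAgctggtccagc
The match of ASNS, asparagine synthetase, begins 68 bases before its start, at the place of the gene's known amino acid response element. CARS, CHAC1 and SLC7A1 also held a match.

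Gene counts ran from 17181204 to 26153506 per library. The construct's own gene, LEF1, averaged 246 ± 49.1 CPM in SW480 dnLEF1 and 51.6 ± 1.89 CPM in SW480 GFP, and 23.3 ± 2.35 CPM in SW620 dnLEF1 against 3.36 ± 0.50 CPM in SW620 GFP (SD, n = 4 each; CPM are read counts relative to the TMM-scaled library size). The counts do not separate the construct from the cells' own LEF1. EPCAM, an epithelial surface marker, averaged 311 to 516 CPM over the 4 groups, and the keratin KRT8 3710 to 5520 CPM. The differentiated colon markers KRT20, CDX1 and LGALS4 were near 0 in every group, but other colon markers were present in some groups. VIL1 averaged 2.43 CPM in SW480 dnLEF1, 34.9 CPM in SW480 GFP, 303 CPM in SW620 dnLEF1 and 365 CPM in SW620 GFP. In the same order CDX2 averaged 0.131, 12.2, 8.83 and 6.62 CPM, and CDH17 0, 6.69, 0.246 and 0.833 CPM. Of 7 tested colon markers, 7 were lower in SW480 dnLEF1 and 2 in SW620 dnLEF1 than in GFP, where 24.4% and 2.43% of all genes were called lower. The sum of 10 such markers was 7040 to 8480 CPM in SW480 dnLEF1 against 10700 to 12500 CPM in SW480 GFP, and 8500 to 10800 CPM in SW620 dnLEF1 against 9870 to 12200 CPM in SW620 GFP. Leukocyte markers summed to 8.59 to 11.3 CPM in SW480 dnLEF1 and 4.90 to 6.24 CPM in SW480 GFP, fibroblast markers to 14.9 to 38 against 8.88 to 17.6 CPM (COL1A1 higher, LUM and PDGFRB lower), and endothelial markers to 2.27 to 3.89 against 0.553 to 1.37 CPM. In SW620 dnLEF1 and SW620 GFP these sums were 5.97 to 7 and 4.74 to 5.76 CPM for leukocytes, 29.2 to 32.6 and 22.3 to 34.3 CPM for fibroblasts, and 1.10 to 2.01 and 1.03 to 1.33 CPM for endothelium. The leukocyte markers CD68 and LYZ and the endothelial marker VWF were called higher in SW480 dnLEF1, at log2 fold changes of 1.27, 0.62 and 1.80. In SW620 dnLEF1 LYZ was called higher, at 1.38, and the fibroblast marker COL1A1 lower, at -1.13. The leukocyte marker PTPRC was at 0 in SW480 dnLEF1 and both SW620 groups, and averaged 0.0785 CPM in SW480 GFP. The fibroblast marker DCN was at 0 in both SW480 groups. The part of these markers in the results below was not tested.

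Individual libraries stood apart in these 38 genes. SW620 GFP replicate 4 was the highest of its group in 30 of the 38 genes (78.9%), all 12 synthetases among them, whereas it was the highest for 23.4% of all genes. SW480 GFP replicate 1 was the lowest of its group in 26 genes (68.4%), against 33.7% of all genes. SW620 dnLEF1 replicate 1 was the highest in 24 (63.2%; all genes 25.3%) and SW620 GFP replicate 3 the lowest in 23 (60.5%; all genes 24.7%). In SW620 GFP replicate 3 the summary lines that name no gene held 50.5% of all counts, against 20 to 24.3% in the other 15 libraries. Reads aligned to several places made up 39.4% of all counts there, against 7.61 to 9.46% in the others. Some of the results that rest on these libraries are given with and without them.

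**Figure D1:**
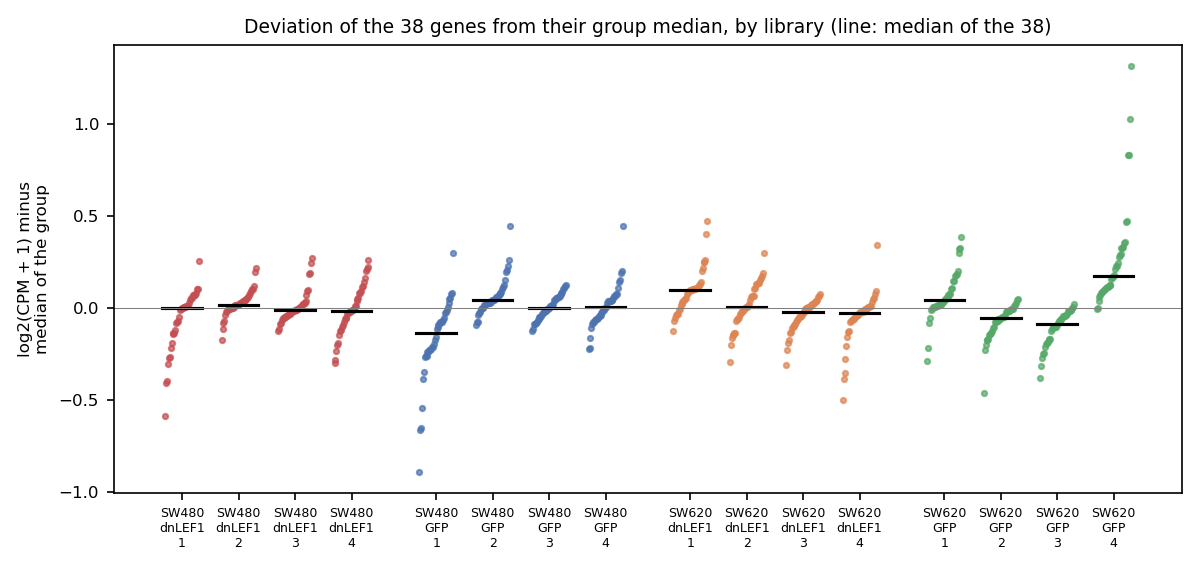
Deviation of each of the 38 genes from its group median, as log2(CPM + 1), in each of the 16 libraries; points are genes and the line in each library is their median. The median deviation was 0.175 in SW620 GFP replicate 4, with 36 genes above zero, and -0.137 in SW480 GFP replicate 1, with 31 below zero, while the medians of all genes lay between -0.007 and 0.006.

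The first comparison asks what dnLEF1 did to these genes in SW480. In SW480 dnLEF1 the transporters that import glutamine, leucine and other neutral amino acids had lower counts, SLC1A5 2.94-fold and SLC7A5 1.77-fold lower, and 7 of 12 synthetases were lower by 1.13- to 1.27-fold. VLDLR fell further than any other of the 38, by 4.47-fold. ATF4 itself, DDIT3 and ASNS did not pass the test. In all, 3 of the 38 genes were higher in SW480 dnLEF1 than in SW480 GFP, 17 were lower (44.7%) and 18 did not pass (edgeR quasi-likelihood test, adjusted p below 0.05 over all genes). Of the 14426 genes tested in SW480, 24.2% were called higher and 24.4% lower, 48.5% in all, so the share of these genes called lower was above that of all genes, as a description. Their median log2 fold change was -0.20, against -0.00 over all genes. The dnLEF1 and GFP libraries did not overlap for 3 genes that were higher and 16 that were lower, while 21.7% and 23.4% of all genes were so separated. In a bulk library, fewer cells expressing a gene and less of its RNA per cell cannot be told apart.

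Among the transcription factors, ATF4, the central factor of the response, lay at 261, 261, 253 and 302 CPM in SW480 dnLEF1 and at 243, 290, 298 and 280 CPM in SW480 GFP. These ranges overlapped, and the log2 fold change was -0.04 ± 0.08 (± SE here and below; edgeR adjusted p = 0.702). CEBPB, a C/EBP partner of ATF4, had 26.4, 24.5, 29.3 and 33.5 CPM in SW480 dnLEF1, against 23.0, 22.2, 23.5 and 20.9 CPM in SW480 GFP. Every dnLEF1 library was above every GFP library, and CEBPB was 1.27-fold higher (log2 0.35 ± 0.10, edgeR adjusted p = 0.00866). DDIT3, which encodes the stress factor CHOP, averaged 26.0 ± 2.35 CPM in SW480 dnLEF1 and 25.6 ± 3.26 CPM in SW480 GFP (SD, n = 4 each; edgeR adjusted p = 0.868). ATF5, a relative of ATF4 that is translated in the same way, averaged 49.9 ± 2.38 CPM in SW480 dnLEF1 and 49.0 ± 3.06 CPM in SW480 GFP and did not pass either. DDIT3 and MARS overlap by 982 bases on opposite strands, and with no strand setting given, their reads there cannot be told apart.

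The effectors moved in both directions, with 1 of 6 higher and 3 lower. VLDLR, a lipoprotein receptor raised by ATF4 under stress (chr9:2621182-2660056 on hg38, plus strand), had 4.37, 5.37, 5.05 and 4.81 CPM in SW480 dnLEF1 and 19.2, 23.5, 22.8 and 22.5 CPM in SW480 GFP. The groups were far apart relative to their spread, with a log2 fold change of -2.16 ± 0.10 (edgeR adjusted p = 6.69e-10). Its opposite-strand neighbour VLDLR-AS1 overlaps it by 1276 bases. TRIB3, a pseudokinase that damps ATF4 signalling, had 39.1, 41.0, 39.9 and 43.8 CPM in SW480 dnLEF1 against 46.4, 59.1, 59.3 and 53.2 CPM in SW480 GFP. All dnLEF1 libraries were below all GFP libraries and the gene was 1.33-fold lower (log2 -0.41 ± 0.08, edgeR adjusted p = 0.00107). STC2, a secreted stress glycoprotein, was the effector that was higher, at 201, 168, 168 and 166 CPM in SW480 dnLEF1 and 156, 124, 119 and 129 CPM in SW480 GFP. It rose 1.33-fold without overlap (log2 0.41 ± 0.09, edgeR adjusted p = 0.00189).

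DDIT4, the mTORC1 inhibitor REDD1 (chr10:72273919-72276036, plus strand), passed narrowly in SW480. Its libraries had 22.3, 27.2, 21.8 and 25.1 CPM with dnLEF1 and 21.8, 38.8, 33.7 and 30.9 CPM with GFP. SW480 GFP replicate 1 lay at the low end of the dnLEF1 range, and the fold change was 1.30-fold lower (log2 -0.37 ± 0.14, edgeR adjusted p = 0.0391). Without that replicate the log2 fold change was -0.52 (edgeR adjusted p = 0.00118), and the call was lost in 8 of 14 alternatives, with adjusted p up to 0.155. They are limma voom, the fit of all 16 libraries, and the fits without SW480 GFP replicate 2, 3 or 4 or without SW480 dnLEF1 replicate 1, 3 or 4. The 20 tested genes nearest to DDIT4 on the chromosome had a median log2 fold change of -0.25 in SW480. Of these, 8 were called lower and 3 higher, and their part was not tested. CHAC1, which degrades glutathione, had 4.37, 5.37, 5.55 and 6.53 CPM in SW480 dnLEF1 and 3.95, 8.13, 6.47 and 7.15 CPM in SW480 GFP, and did not pass (edgeR adjusted p = 0.35). SESN2, a leucine sensor upstream of mTORC1, did not pass either, with 13.0 to 15.3 CPM in SW480 dnLEF1 and 11.9 to 13.6 CPM in SW480 GFP.

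**Figure D2:**
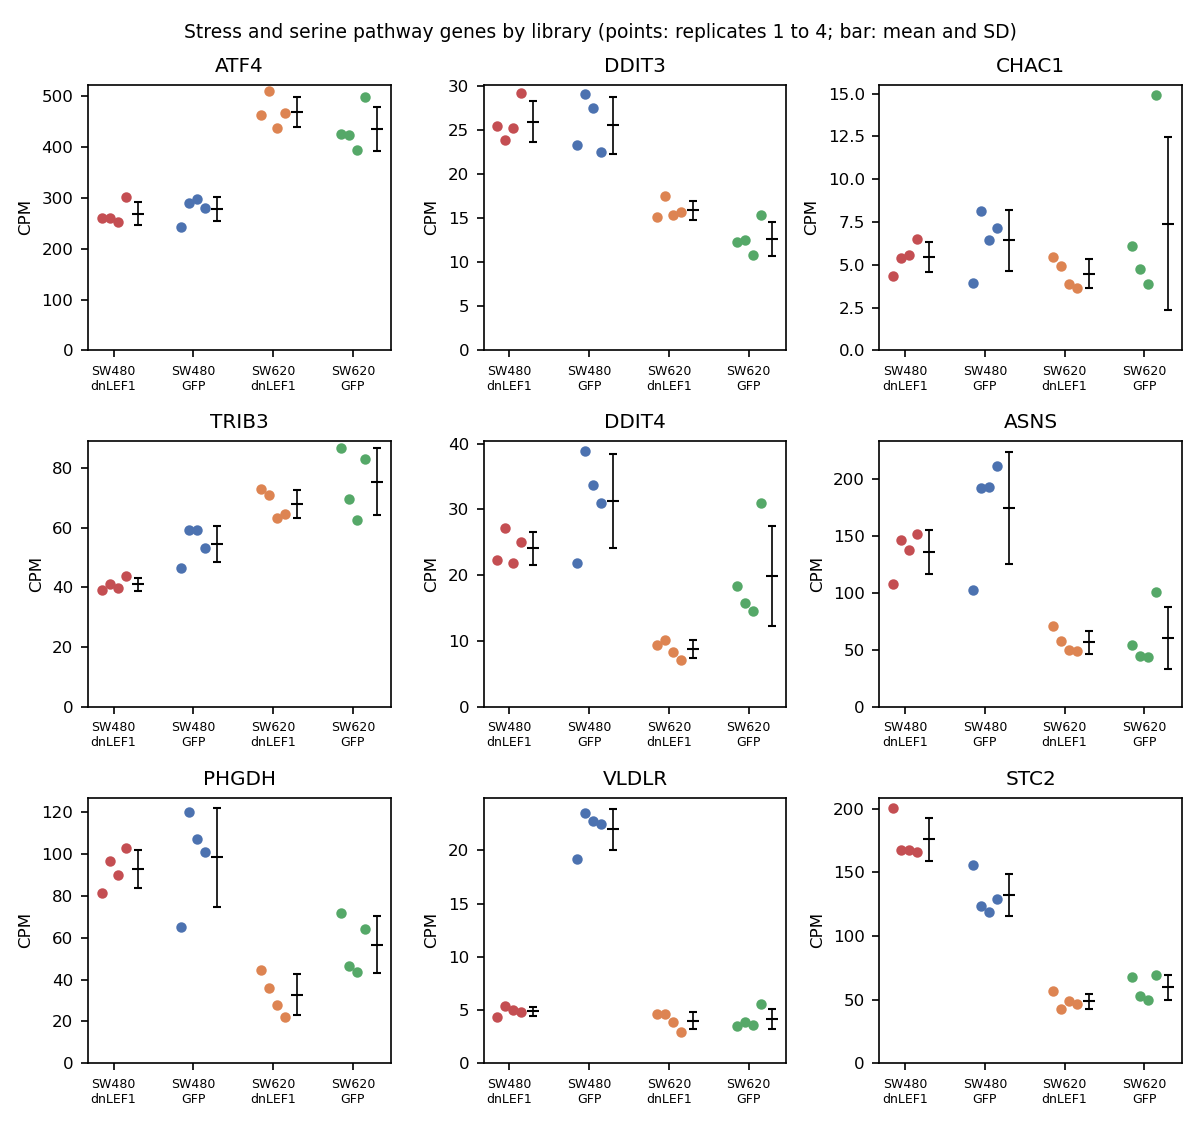
CPM of 9 stress factors, effectors and enzymes in every library, with SW480 dnLEF1, SW480 GFP, SW620 dnLEF1 and SW620 GFP from left to right; points are replicates 1 to 4 and bars the mean and SD. VLDLR lay at 4.37 to 5.37 CPM in SW480 dnLEF1, against 19.2 CPM or more in SW480 GFP, while 1 SW620 GFP library with 14.9 CPM stands out for CHAC1.

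Of the 7 enzymes of asparagine, serine and one-carbon metabolism, 3 were lower and 1 higher in SW480 dnLEF1. ASNS (chr7:97851677-97872542, minus strand) had 108, 147, 138 and 152 CPM in SW480 dnLEF1, against 103, 192, 193 and 212 CPM in SW480 GFP. In each group replicate 1 was the lowest library. The log2 fold change was -0.36 ± 0.17 with all libraries (edgeR adjusted p = 0.101) and -0.55 without SW480 GFP replicate 1 (edgeR adjusted p = 0.000657). It was -0.25 without SW480 GFP replicate 4 (edgeR adjusted p = 0.285). ASNS also passed with no filter on low counts (edgeR adjusted p = 0.0499) and with a block for replicate number (edgeR adjusted p = 0.0171). In 11 of 14 alternatives it did not pass. PHGDH, the first enzyme of serine synthesis, had a log2 fold change of -0.08 ± 0.14 in all libraries (edgeR adjusted p = 0.661). It was -0.24 without SW480 GFP replicate 1 (edgeR adjusted p = 0.0408), but 0.03 without SW480 GFP replicate 2 (edgeR adjusted p = 0.865). PSAT1, the next enzyme of that path, was 1.24-fold lower and MTHFD2, a mitochondrial folate enzyme, 1.18-fold lower, both without overlap (edgeR adjusted p = 0.00317 and 0.00505). ALDH1L2, a mitochondrial folate dehydrogenase near the detection limit, had 0.525, 1.06, 1.14 and 0.509 CPM in SW480 dnLEF1 and 1.30, 2.28, 1.76 and 3.10 CPM in SW480 GFP (2.57-fold lower, edgeR adjusted p = 0.00303). PSPH, the last enzyme of serine synthesis, was 1.16-fold higher (edgeR adjusted p = 0.0258), a call lost in 3 of 14 alternatives, those without SW480 GFP replicate 1 or 4 and without SW480 dnLEF1 replicate 1, with adjusted p up to 0.069. SHMT2, a serine hydroxymethyltransferase, did not pass, and neither did PCK2, a mitochondrial gluconeogenic enzyme, or CTH and CBS of the transsulfuration path. CTH was called lower with no filter on low counts, with a block for replicate number and in the fit of all 16 libraries. It was also called lower without SW480 GFP replicate 4 or SW480 dnLEF1 replicate 3. CBS has a near-identical annotated copy and PSPH a related pseudogene, so their counts are uncertain.

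Transporters showed the lowest median log2 fold change of the 6 roles in SW480, -0.51, with 4 of 6 lower and none higher. SLC1A5, the glutamine and neutral amino acid exchanger (chr19:46774883-46788594, minus strand), had 487, 551, 521 and 554 CPM in SW480 dnLEF1 and 1410, 1610, 1570 and 1640 CPM in SW480 GFP. The lowest GFP library was well above the highest dnLEF1 library (log2 -1.56 ± 0.07, edgeR adjusted p = 4.71e-10). SLC7A5, the light chain of the leucine transporter (chr16:87830023-87869507, minus strand), had 495, 619, 624 and 607 CPM in SW480 dnLEF1, against 987, 1070, 1060 and 1040 CPM in SW480 GFP (log2 -0.82 ± 0.08, edgeR adjusted p = 8.66e-07). Its partner chain SLC3A2 had 352, 349, 321 and 393 CPM with dnLEF1 and 449, 495, 485 and 442 CPM with GFP, and was 1.32-fold lower (log2 -0.40 ± 0.07, edgeR adjusted p = 0.000487). Neither chain overlapped between the groups.

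SLC38A2, a sodium-coupled carrier of small neutral amino acids (chr12:46358188-46372773, minus strand), had 175, 221, 227 and 203 CPM in SW480 dnLEF1 and 291, 317, 305 and 358 CPM in SW480 GFP. It was 1.54-fold lower without overlap (log2 -0.62 ± 0.09, edgeR adjusted p = 3.91e-05). SLC7A1, the carrier of arginine and lysine, and SLC7A11, the cystine-glutamate exchanger, did not pass. SLC7A11 had 25.7 to 46.5 CPM in SW480 dnLEF1 and 25.3 to 35 CPM in SW480 GFP, and was called higher only when dnLEF1 replicate 1 was left out, among the 8 runs that left out 1 library. Around the 4 transporters that fell, the 20 nearest tested genes had median log2 fold changes of 0.30 at SLC1A5, 0.15 at SLC7A5, 0.02 at SLC3A2 and -0.19 at SLC38A2. At SLC38A2 10 of these neighbours were called lower and 3 higher, and at SLC1A5 0 lower and 11 higher. The part of the neighbourhood was not tested.

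**Figure D3:**
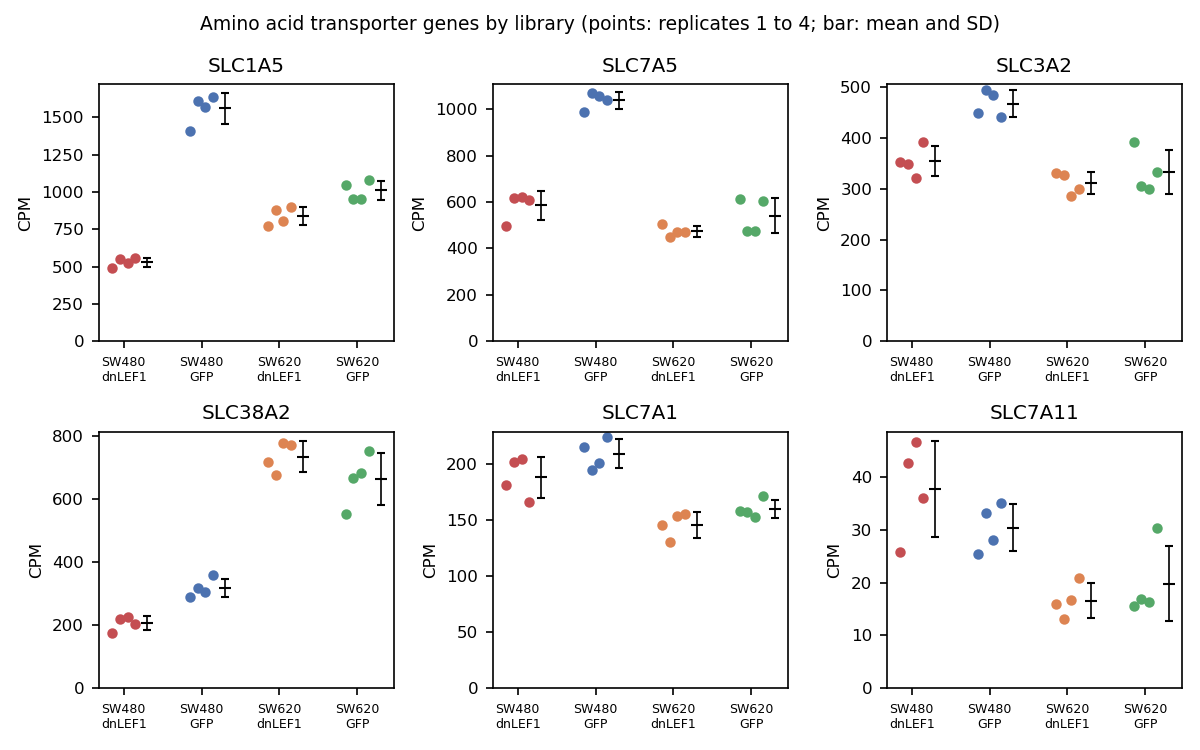
CPM of the 6 amino acid transporters in every library, with SW480 dnLEF1, SW480 GFP, SW620 dnLEF1 and SW620 GFP from left to right; points are replicates 1 to 4 and bars the mean and SD. SLC1A5 averaged 528 CPM in SW480 dnLEF1 and 1560 CPM in SW480 GFP, and 837 CPM in SW620 dnLEF1 and 1010 CPM in SW620 GFP.

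For the synthetases, which join each amino acid to its tRNA, 11 of 12 log2 fold changes were below zero in SW480 and 7 passed the test, namely those for glycine (GARS), asparagine (NARS), leucine (LARS), glutamate and proline (EPRS), isoleucine (IARS), methionine (MARS) and threonine (TARS). GARS had 268, 258, 252 and 251 CPM in SW480 dnLEF1 and 294, 341, 333 and 346 CPM in SW480 GFP. It was 1.27-fold lower without overlap (log2 -0.35 ± 0.07, edgeR adjusted p = 0.00063). NARS had 97.1, 95.1, 95.8 and 90.6 CPM in SW480 dnLEF1, against 114, 118, 112 and 129 CPM in SW480 GFP, a 1.25-fold lower level (log2 -0.32 ± 0.06, edgeR adjusted p = 0.000887). The other 5 had log2 fold changes of -0.29 in LARS, -0.28 in EPRS, -0.22 in MARS, -0.21 in IARS and -0.18 in TARS, and MARS alone of the 7 overlapped between the groups. The call of TARS was lost without SW480 dnLEF1 replicate 3 or 4 or SW480 GFP replicate 2, 3 or 4, and that of MARS without SW480 GFP replicate 2 or 4.

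Synthetases that did not pass were AARS, CARS, SARS, WARS and YARS, for alanine, cysteine, serine, tryptophan and tyrosine. AARS averaged 131 ± 4.28 CPM in SW480 dnLEF1 and 131 ± 13.8 CPM in SW480 GFP (SD, n = 4 each). WARS did not overlap between the groups, being lower with dnLEF1, and missed the threshold (edgeR adjusted p = 0.0529). It was called lower with DESeq2, with limma voom, in the fit of all 16 libraries and without replicate 1 of SW480 dnLEF1. Without SW480 GFP replicate 1, CARS, SARS and WARS were also called lower, with CHAC1, ASNS and PHGDH, and the count over the 38 genes was 2 higher and 23 lower. Some synthetases lay among genes that moved the same way. The 20 tested genes nearest to LARS had a median log2 fold change of -0.38 with 12 called lower, and those nearest to NARS -0.20 with 11 called lower, while the median was -0.13 around GARS. The part of the neighbourhood in these differences was not tested.

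The promoter motif was set beside the SW480 calls as a description. Of the 12 genes with TGATGNAA in a window, 7 were lower, with a median log2 fold change of -0.22. Of the 20 with windows lacking it, 8 were lower, with a median of -0.16, where 24.4% of all genes in SW480 were called lower. Most of the genes with the motif were synthetases, so this split is not separate from the split by role. ASNS, AARS, CARS, CHAC1 and SLC7A1 held the motif and did not pass, while SLC1A5, SLC3A2, GARS, NARS, MARS, IARS and TARS held it and fell.

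**Figure D4:**
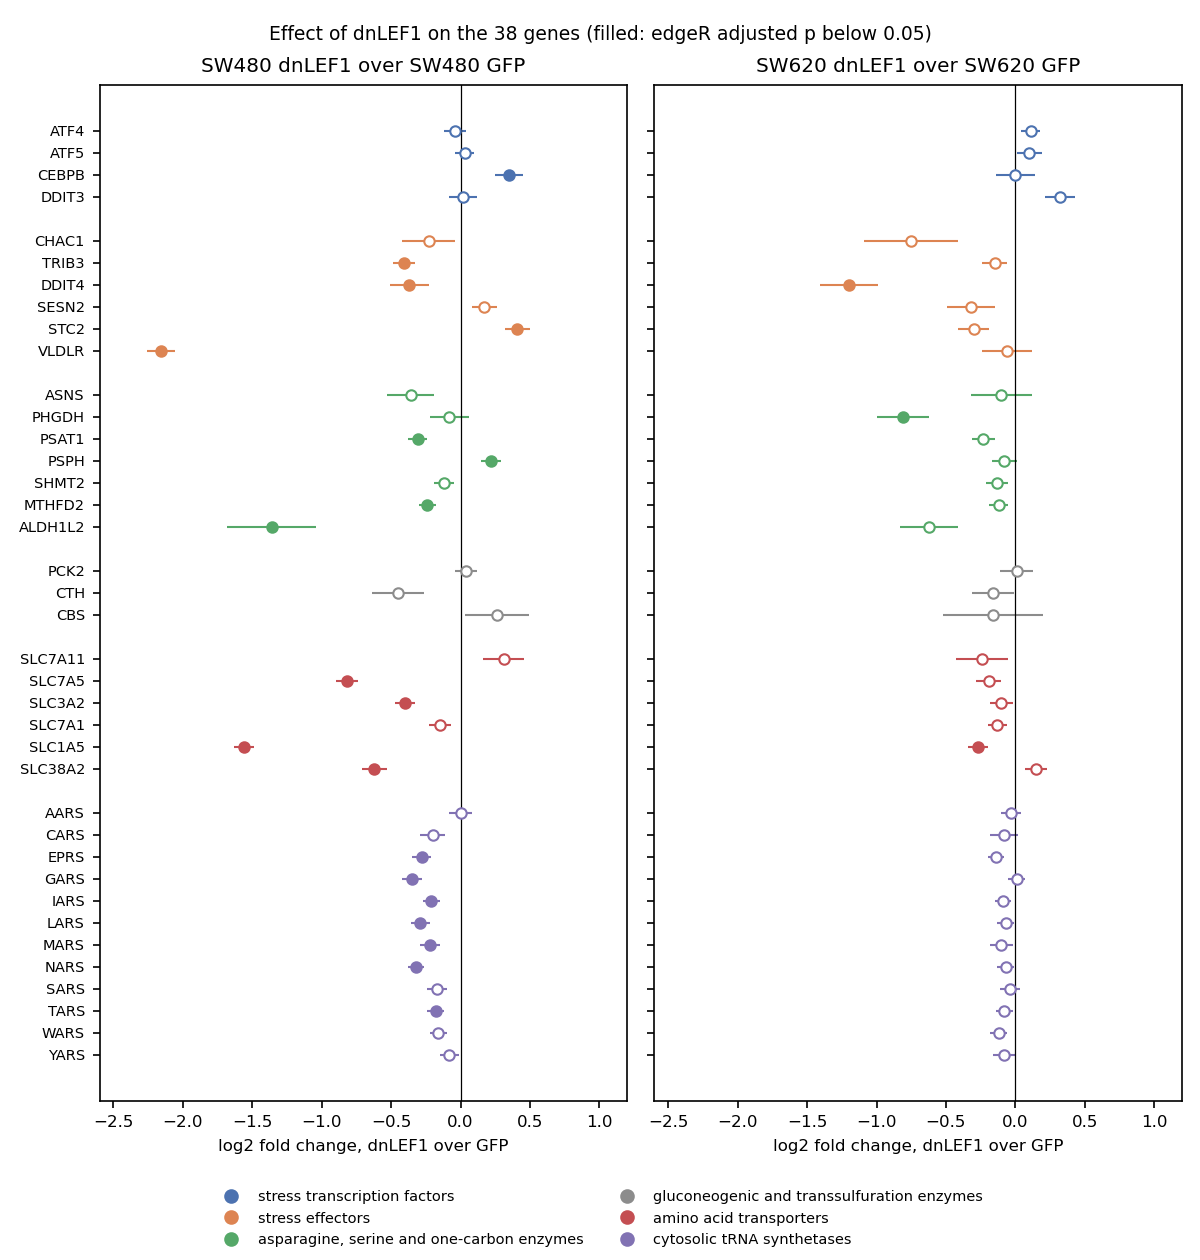
Log2 fold change of dnLEF1 over GFP for the 38 genes, with SW480 in the left panel and SW620 in the right panel; colours mark roles, bars are ± 1 SE and filled points have an edgeR adjusted p below 0.05. In SW480 17 filled points lie below zero and 3 above, and in SW620 DDIT4, PHGDH and SLC1A5 are filled, all below zero.

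In SW620 few of these genes passed the test. DDIT4 was 2.30-fold lower in SW620 dnLEF1 than in SW620 GFP, PHGDH 1.75-fold lower and SLC1A5 1.2-fold lower, and no gene was higher. These 3 of 38 (7.89%) stand against 2.43% of 13336 genes called lower and 6.03% called higher, 8.46% in all. Of the 38 log2 fold changes, 32 were below zero, with a median of -0.10. Over all genes tested, 6852 were below zero, with a median of -0.00. These values include SW620 GFP replicate 4, the highest library of its group in 30 of the 38 genes, and its part in them was not tested. Without SW620 GFP replicate 3, DDIT4, PHGDH and SLC1A5 were again the only ones of the 38 called, all lower. Groups did not overlap for DDIT4, SLC1A5 and ALDH1L2, all lower, where 5.17% of all genes were lower and 8.5% higher without overlap.

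DDIT4 had 9.34, 10.2, 8.30 and 7.09 CPM in SW620 dnLEF1 and 18.3, 15.7, 14.5 and 31.0 CPM in SW620 GFP. All dnLEF1 libraries were below all GFP libraries, though GFP replicate 4 was far above its group. The log2 fold change was -1.20 ± 0.21 (edgeR adjusted p = 0.00175), and -0.90 without GFP replicate 4 (edgeR adjusted p = 0.000682). PHGDH (chr1:119648411-119744218, plus strand) had 44.5, 36.0, 28.0 and 22.1 CPM in SW620 dnLEF1, against 72, 46.7, 43.8 and 64.3 CPM in SW620 GFP. Its groups touched, since dnLEF1 replicate 1 was just above GFP replicate 3 (log2 -0.81 ± 0.19, edgeR adjusted p = 0.0143). Without GFP replicate 4 it was -0.74 (edgeR adjusted p = 0.0403). SLC1A5 had 770, 879, 802 and 896 CPM in SW620 dnLEF1 and 1050, 951, 950 and 1080 CPM in SW620 GFP (log2 -0.27 ± 0.07, edgeR adjusted p = 0.02). This call was lost in 3 of 14 alternatives, those without GFP replicate 4 and without dnLEF1 replicate 1 or 3, with adjusted p up to 0.0682. Without GFP replicate 4 the log2 fold change was -0.23 (edgeR adjusted p = 0.061).

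The other stress genes did not pass in SW620. ATF4 had 464, 510, 437 and 467 CPM in SW620 dnLEF1 and 426, 424, 395 and 498 CPM in SW620 GFP, with overlapping ranges (log2 0.11 ± 0.07, edgeR adjusted p = 0.469). DDIT3 had 15.2, 17.5, 15.4 and 15.7 CPM in SW620 dnLEF1, against 12.3, 12.5, 10.8 and 15.4 CPM in SW620 GFP (log2 0.32 ± 0.11, edgeR adjusted p = 0.088). Without GFP replicate 4, DDIT3 was called higher, at a log2 fold change of 0.42 (edgeR adjusted p = 0.0165). The same library set the values of CHAC1 and ASNS. CHAC1 had 5.44, 4.91, 3.89 and 3.65 CPM in SW620 dnLEF1 and 6.07, 4.75, 3.89 and 14.9 CPM in SW620 GFP, with a log2 fold change of -0.75 ± 0.34 in all libraries and -0.15 without GFP replicate 4 (edgeR adjusted p = 0.234 and 0.731). ASNS had 70.9, 57.7, 49.5 and 48.9 CPM in SW620 dnLEF1 and 54.3, 44.3, 43.5 and 101 CPM in SW620 GFP, and its log2 fold change of -0.10 ± 0.22 became 0.26 without that library (edgeR adjusted p = 0.861 and 0.276). TRIB3 averaged 67.9 ± 4.77 CPM in SW620 dnLEF1 and 75.4 ± 11.2 CPM in SW620 GFP (SD, n = 4 each; edgeR adjusted p = 0.4).

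ALDH1L2 was lower in every SW620 dnLEF1 library, at 1.04 to 1.14 CPM against 1.34 to 2.04 CPM in SW620 GFP, and did not pass (edgeR adjusted p = 0.094). PSAT1 did not pass in SW620 either. It was called lower with DESeq2, with a block for replicate number and without SW620 dnLEF1 replicate 1. The 12 synthetases had log2 fold changes between -0.14 and 0.01 in SW620 and none passed. SLC7A5 averaged 474 ± 24.1 CPM in SW620 dnLEF1 and 542 ± 77.6 CPM in SW620 GFP, and SLC38A2 735 ± 48.2 CPM against 664 ± 83.6 CPM (SD, n = 4 each; edgeR adjusted p = 0.218 and 0.377). The 20 tested genes nearest to ASNS had a median log2 fold change of 0.31 in SW620, with 14 called higher, and those nearest to TRIB3 0.29, with 12 called higher. Around DDIT4, PHGDH and SLC1A5 the medians were -0.02, -0.01 and -0.03.

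Whether the dnLEF1 effect differed between the lines was tested with an interaction term over the 16 libraries, which is the SW620 log2 fold change minus that of SW480. It differed in 8 of the 38 genes, 6 with a positive and 2 with a negative difference, against 16.2% and 12.3% of 14926 genes, 28.5% in all. SLC1A5 differed by 1.29 ± 0.10 (edgeR adjusted p = 1.97e-09), with a log2 fold change of -0.27 in SW620 and -1.56 in SW480, and so fell in both lines but less in SW620. VLDLR differed by 2.10 ± 0.21 (edgeR adjusted p = 1.55e-07), with -0.06 in SW620 and -2.16 in SW480. In SW620 it was at 2.98 to 4.60 CPM with dnLEF1 and 3.54 to 5.54 CPM with GFP. SLC38A2 differed by 0.77 ± 0.13 and SLC7A5 by 0.63 ± 0.12 (edgeR adjusted p = 0.000128 and 0.00055), which leaves 3 of the 6 transporters with a positive difference and none with a negative one. SLC3A2 passed, with a positive difference, only in alternatives. These were limma voom, a block for replicate number and the fits without SW480 dnLEF1 replicate 4, SW620 GFP replicate 1 or SW620 dnLEF1 replicate 3. Without SW480 dnLEF1 replicate 1, SLC7A11 passed with a negative difference.

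GARS, with a log2 fold change of 0.01 in SW620 and -0.35 in SW480, differed by 0.36 ± 0.09 (edgeR adjusted p = 0.00478). NARS differed by 0.25 ± 0.08 (edgeR adjusted p = 0.0277), and the other 10 synthetases did not pass. NARS lost this call with no filter on low counts and without SW620 dnLEF1 replicate 1, SW620 GFP replicate 2 or 3, SW480 dnLEF1 replicate 4 or SW480 GFP replicate 4. LARS passed, with a positive difference, only in alternatives. These were DESeq2, limma voom, a block for replicate number and the fits without SW480 GFP replicate 3, SW480 dnLEF1 replicate 1 or SW620 dnLEF1 replicate 2. STC2 had the opposite sign in the lines, at -0.30 in SW620, where it did not pass, and 0.41 in SW480, and differed by -0.71 ± 0.16 (edgeR adjusted p = 0.00165). DDIT4 differed by -0.82 ± 0.28 (edgeR adjusted p = 0.0313), a call lost in 7 of 21 alternatives, with adjusted p up to 0.0748. They are DESeq2 and the fits without SW480 GFP replicate 1, SW480 dnLEF1 replicate 2 or 4, SW620 GFP replicate 4 or SW620 dnLEF1 replicate 3 or 4. The number of negative differences was 1 in those 6 fits without a library, 4 without replicate 1 of SW620 dnLEF1 or of SW480 dnLEF1, 5 without SW620 GFP replicate 2 or 3, and 3 without SW620 dnLEF1 replicate 2 or SW480 GFP replicate 2. PHGDH, lower in SW620 and not called in SW480, missed the threshold for a difference, at -0.72 ± 0.27 (edgeR adjusted p = 0.051). It passed in 9 of 21 alternatives, with the size factors of DESeq2 in edgeR, with no filter, with limma voom, and without SW620 dnLEF1 replicate 1 or 2, SW620 GFP replicate 2 or 3, SW480 dnLEF1 replicate 1 or SW480 GFP replicate 2.

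The lines already differed in these genes without dnLEF1. This comparison uses the same GFP libraries as those above. In SW620 GFP, AARS was 3.10-fold, SLC38A2 2.08-fold and TARS 1.81-fold higher than in SW480 GFP, and VLDLR 5.33-fold, ASNS 2.89-fold and CEBPB 2.43-fold lower. Of the 38 genes, 10 were higher in SW620 GFP, 19 lower and 9 did not pass. Among 14350 genes, 37.7% were called higher and 40.3% lower, so that a share of these genes close to that of all genes differed, 76.3% against 78.0%. Groups did not overlap for 10 higher and 14 lower genes, against 35.1% and 37.4% of all genes.

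The factors divided. ATF4 (chr22:39519695-39522683, plus strand) was 1.56-fold higher in SW620 GFP, at 436 ± 44 CPM against 278 ± 24.3 CPM in SW480 GFP (SD, n = 4 each; log2 0.64 ± 0.08, edgeR adjusted p = 3.28e-06). The other 3 factors were lower in SW620 GFP. ATF5 averaged 21.8 ± 3.23 CPM in SW620 GFP and 49.0 ± 3.06 CPM in SW480 GFP (log2 -1.18 ± 0.09, edgeR adjusted p = 2.54e-08), and CEBPB 9.24 ± 1.60 CPM against 22.4 ± 1.13 CPM (log2 -1.28 ± 0.11, edgeR adjusted p = 9.66e-08). DDIT3 was 2.02-fold lower (edgeR adjusted p = 1.5e-06). Of the effectors, TRIB3 was 1.38-fold higher (edgeR adjusted p = 0.000767), and STC2 2.22-fold lower at 59.8 ± 9.91 CPM in SW620 GFP against 132 ± 16.5 CPM in SW480 GFP (edgeR adjusted p = 1.97e-07). VLDLR averaged 4.13 ± 0.952 CPM in SW620 GFP and 22.0 ± 1.92 CPM in SW480 GFP (log2 -2.41 ± 0.14, edgeR adjusted p = 6e-10).

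The transporters were mostly lower, with 5 of 6 called lower in SW620 GFP. SLC7A5 averaged 542 ± 77.6 CPM in SW620 GFP and 1040 ± 36.1 CPM in SW480 GFP (log2 -0.95 ± 0.08, edgeR adjusted p = 1.13e-07). SLC38A2, the exception, averaged 664 ± 83.6 CPM in SW620 GFP against 318 ± 28.9 CPM in SW480 GFP (log2 1.06 ± 0.09, edgeR adjusted p = 6.07e-08). Its level in every SW620 library was above its level in every SW480 library.

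Among the synthetases 5 were higher in SW620 GFP and 3 lower. AARS (chr16:70251983-70289707, minus strand) had 393, 390, 373 and 479 CPM in SW620 GFP and 113, 144, 128 and 140 CPM in SW480 GFP, and the groups were far apart (log2 1.63 ± 0.09, edgeR adjusted p = 4.53e-10). TARS (chr5:33440696-33468091, plus strand) averaged 537 ± 24.5 CPM in SW620 GFP and 296 ± 13.5 CPM in SW480 GFP (log2 0.85 ± 0.06, edgeR adjusted p = 4.05e-09). YARS was 1.54-fold higher (edgeR adjusted p = 1.11e-05), at 223 ± 29.5 CPM in SW620 GFP and 144 ± 11.5 CPM in SW480 GFP. WARS was 1.39-fold lower, at 132 ± 8.28 CPM in SW620 GFP and 183 ± 7.42 CPM in SW480 GFP (edgeR adjusted p = 3.02e-06).

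For several of these genes the neighbours on the chromosome differed between the lines by a similar amount. The 20 tested genes nearest to AARS had a median log2 fold change of 1.64 with 18 called higher, close to the 1.63 of AARS. Around TARS the median was 0.95 with 17 called higher, and around WARS -0.47 with 17 called lower, beside 0.85 and -0.48 in the genes themselves. At ASNS the neighbours' median was -1 with 19 called lower, against -1.53 in ASNS. For other genes the neighbours' medians were far from the gene's own value, at -1.26 around ATF4, -0.04 around SLC38A2, -0.03 around YARS and -0.06 around VLDLR. The part of the chromosome region in these line differences was not tested.

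**Figure D5:**
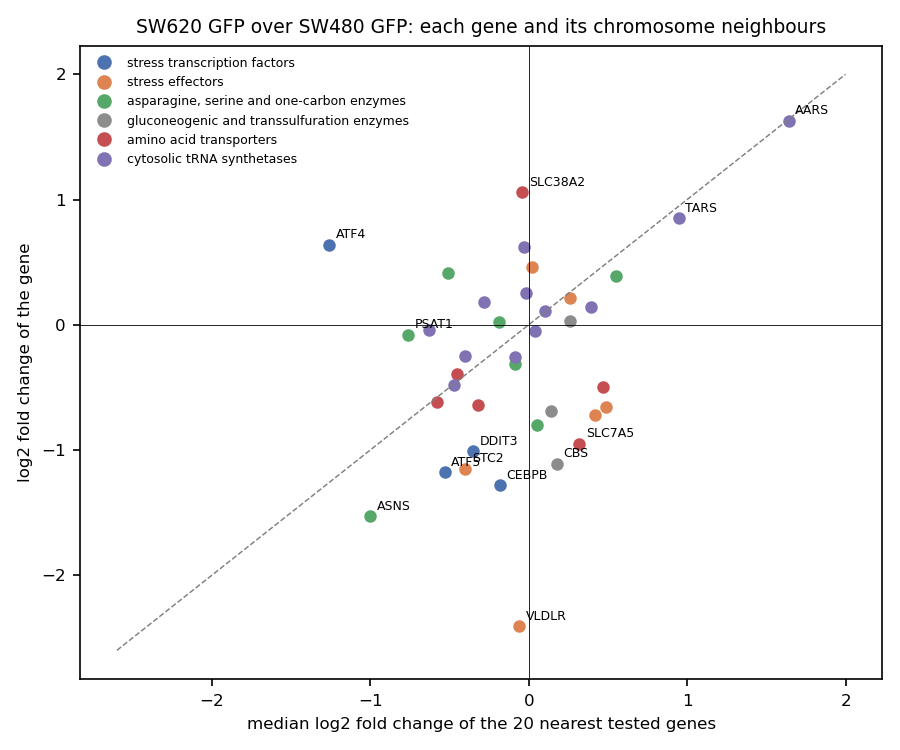
Log2 fold change of SW620 GFP over SW480 GFP for each of the 38 genes (vertical axis) against the median of its 20 nearest tested genes on the chromosome (horizontal axis); the dashed line marks equal values. AARS at 1.63, TARS at 0.85 and WARS at -0.48 lie near the line, whereas ATF4, SLC38A2 and VLDLR lie far from it.

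Levels of different genes were compared per length, as CPM per kilobase of the longest annotated transcript. SLC1A5 was the first of the 6 transporters in all groups, at 183 ± 10.9 CPM per kilobase in SW480 dnLEF1, 540 ± 35.3 in SW480 GFP, 290 ± 20.9 in SW620 dnLEF1 and 349 ± 22.7 in SW620 GFP (SD, n = 4 each). TARS was the first synthetase on this scale in all groups, with 97.7, 111, 190 and 201 CPM per kilobase in the same order of groups. AARS ranked 10 of 12 in both SW480 groups, and 3 and 4 in SW620 dnLEF1 and SW620 GFP. The order rests on the transcript taken as the length. With the canonical transcript, an alternative chosen after the data were seen, SLC3A2 with 188 CPM per kilobase came just before SLC1A5 in SW480 dnLEF1, and GARS with 106 and 135 CPM per kilobase was the first synthetase in SW480 dnLEF1 and SW480 GFP. AARS then ranked 8 in SW480 dnLEF1, 11 in SW480 GFP and 2 in both SW620 groups.

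The spread between libraries differed among the genes. In SW620 GFP the coefficient of variation was 68.5% for CHAC1, 44.6% for ASNS, 40.1% for CBS at a mean of 0.748 CPM, 38% for DDIT4 and 35.4% for SLC7A11, whereas the 12 synthetases lay between 2.17% and 19.2%. In SW480 GFP it was 36.5% for ALDH1L2 at a mean of 2.11 CPM, 28.1% for ASNS, 27.8% for CHAC1, 24.8% for CTH, 24.0% for PHGDH and 22.7% for DDIT4, against 1.87% to 12.1% for the synthetases. Synthetases varied by 2.07% to 9.95% in SW480 dnLEF1 and by 1.23% to 8.22% in SW620 dnLEF1.

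Other genes of the pathway were taken from 9 lists with 168 genes. In SW480, the other cytosolic synthetases and scaffold genes had 0 of 11 higher and 1 lower, FARSB for phenylalanine (log2 -0.30 ± 0.10, edgeR adjusted p = 0.0192). Mitochondrial synthetases had 0 of 17 higher and 3 lower, with log2 fold changes of -0.37 in HARS2 and -0.24 in CARS2. Further amino acid transporters had 2 of 20 higher and 10 lower. SLC1A2, a glutamate carrier, was lower by a log2 fold change of -5.89, and SLC7A8, another light chain of leucine transport, by -2.40, while SLC1A3 was higher at 0.64 and SLC38A5 at 0.32. Further genes linked to ATF4 had 4 of 13 higher and 6 lower, among them VEGFA, the vascular growth factor, at 1.43 ± 0.08 (edgeR adjusted p = 5.37e-09), GDF15, a stress cytokine, at 0.89, and GADD45A and CEBPG at -0.77 and -0.43.

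In SW480 the eIF2 control genes had 3 of 16 higher and 4 lower, with PPP1R15A, the eIF2 phosphatase subunit GADD34, at 0.52 and EIF2AK3, which encodes PERK, at -0.44. Endoplasmic reticulum stress genes had 3 of 17 higher and 6 lower, with EDEM1 at 0.39, HERPUD1 at 0.31, XBP1 at -0.55 and ERN1 at -1.06. Folate and methionine genes had 3 of 21 higher and 7 lower, with FPGS at 0.48 and GGH at -0.89, and other amino acid and glutathione enzymes 6 of 16 higher and 4 lower, with ASL at 0.70 and ARG2 at -0.69. The genes that sense amino acids for mTORC1 had 5 of 24 higher and 3 lower, with LAMTOR4 at 0.41, RHEB at -0.57 and SESN3 at -0.97. These are log2 fold changes of genes that passed, set against the 24.2% higher and 24.4% lower among all genes in SW480.

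SW620 showed few calls in the same lists. The mitochondrial synthetase CARS2 was lower, at -0.23, as were SLC1A4, a neutral amino acid exchanger, at -0.73 and ERO1A, an oxidase of the endoplasmic reticulum, at -0.24. Higher were SLC38A9, the lysosomal arginine sensor, at 0.32 and RHEB, the activator of mTORC1, at 0.27. None passed among the other cytosolic synthetases, the eIF2 control genes, the endoplasmic reticulum stress genes or the amino acid and glutathione enzymes. The dnLEF1 effect differed between lines for 6 of 22 further transporters, all with a positive difference (16.2% of all genes). SLC1A2 differed by 6.26 ± 1.11 and SLC7A8 by 2.33 ± 0.18, and of the 27 further transporters listed 16 passed the filter in SW620. VEGFA differed by -1.72 and RHEB by 0.84. Between the GFP cells, mitochondrial synthetases had 13 of 17 higher in SW620 GFP and 1 lower, with a median log2 fold change of 0.50, against 37.7% higher and 40.3% lower among all genes, where the other cytosolic synthetases had 6 of 11 higher and 4 lower, KARS at 1.63 and VARS at 1.19 among them.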

How the data were processed

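Counts of reads per gene were deposited by the authors as 1 file per library. The submitters' processing notes name Trimmomatic, TopHat2, HTSeq, DESeq2 and the hg38 build. They give no version, and neither annotation nor strand setting is given in the sources used here. Each file lists 26485 symbols and 5 summary lines that name no gene. These lines were dropped, with their 50.5% share in SW620 GFP replicate 3 and 20 to 24.3% share elsewhere. Reads aligned to several places are outside the gene counts.

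The tests used R 4.3.3 and edgeR 4.0.16 (filterByExpr, TMM scaling, quasi-likelihood test, Benjamini-Hochberg adjustment over all genes, calls below 0.05). Within-line and GFP comparisons were fitted on their own 8 libraries and the line difference on all 16. The SE was taken as the size of the log2 fold change divided by the root of F. CPM use TMM sizes of all 16 libraries. The fit was tested on simulated counts. Alternatives were DESeq2 1.42.0, voom in limma 3.58.1, other scaling, no filter, a replicate block and leaving out each library. Positions and transcript lengths are from GENCODE 44 and promoters from RefSeq.

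The 38 genes and the 9 lists were chosen with earlier results of these data known. Full values are given for up to 8 called genes each way of a within-line comparison with the smallest adjusted p, up to 5 each way for the other 2 comparisons, and ATF4, DDIT3, ASNS, CHAC1, TRIB3 and DDIT4. Up to 2 called genes each way are taken from each other list, and some of these are not reported here. Any other of the 38 genes given by name was chosen after its values were seen.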

Additional observations from a re-analysis of the deposited data

Results flagged for a closer look

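Within a group of 4 libraries, 12 of 152 sets of values had 1 library far from the other 3, and chance gives about 1 in 20 such sets. SW620 GFP replicate 4 held the highest value of VLDLR (5.54 CPM, next 3.87), SLC7A11 (30.3 CPM, next 16.8) and GARS (313 CPM, next 266). SW620 dnLEF1 replicate 1 held the highest of PSAT1 (231 CPM, next 201), MTHFD2 (207 CPM, next 176) and TARS (539 CPM, next 498). In SW480 GFP replicate 1, CARS (84.5 CPM, next 108) and YARS (127 CPM, next 150) were the lowest. In SW480 dnLEF1, replicate 1 was the highest for STC2 (201 CPM, next 168) and the lowest for SLC7A5 (495 CPM, next 607), and replicate 4 was the highest for ATF4 (302 CPM, next 261) and the lowest for IARS (255 CPM, next 290).

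The dnLEF1 effect differed between the lines, by the interaction test of edgeR, in 8 genes. The log2 differences, SW620 minus SW480, were 2.10 for VLDLR, 1.29 for SLC1A5, 0.77 for SLC38A2, 0.63 for SLC7A5, 0.36 for GARS, 0.25 for NARS, -0.71 for STC2 and -0.82 for DDIT4.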

How the results depend on the processing

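For the genes given full values by the rule, 623 values were recomputed. Of these, 591 kept their direction and their side of the threshold, 21 lost a call, 6 gained one and 5 changed sign. The counts of calls and the group levels are not part of this tally. Changes in other genes, such as TARS and MARS in SW480, the line difference of NARS and the sign of PHGDH in SW480, are outside this tally and stand in the report. Leaving out 1 library at a time gave 17 to 25 called genes in SW480 (2 to 3 higher, 14 to 23 lower), 2 to 3 in SW620 (0 to 1 higher, 2 to 3 lower), 7 to 11 for the line difference (5 to 7 positive, 1 to 5 negative) and 28 to 29 between the GFP cells (10 to 10 higher, 18 to 19 lower). The 5 sign changes were in genes that did not pass: ASNS in SW620 (range -0.23 to 0.26 over left-out libraries), at 0.26 without SW620 GFP replicate 4, ATF4 in SW480 (-0.10 to 0.00), at 0.00 without SW480 GFP replicate 3, and DDIT3 in SW480 (-0.04 to 0.09), at -0.02 without SW480 GFP replicate 1, -0.03 without GFP replicate 4 and -0.04 without dnLEF1 replicate 4. The median level of the 38 genes in SW480 dnLEF1 was 138 CPM, and 144 CPM with plain library totals. Same-numbered libraries of the constructs deviated together with correlations of -0.137 to 0.287 in SW480 and -0.0361 to 0.444 in SW620, and not every library correlated best with its own number, so the numbers were not taken to pair them. A replicate block gave 7 calls in SW620 (DDIT3 higher at edgeR adjusted p = 0.0202, and STC2, PSAT1 and SLC7A5 lower beside the 3 of the report), 3 higher and 20 lower in SW480 (ASNS, CARS and CTH added), 8 positive and 2 negative line differences, and 10 higher and 19 lower between the GFP cells. The cause of these changes was not tested.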
